A study of Mus musculus with 112 samples.

Results

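Epithelial surfaces make small proteins that kill or starve microbes. The genes described here are 5 beta-defensins (Defb1, Defb3, Defb4, Defb6 and Defb14), the cathelicidin precursor Camp, the protease inhibitor Slpi and the siderophore-binding lipocalin Lcn2. They were chosen by symbol through the annotation of the array platform, using probe sets that carry a single gene symbol and the probe set with the highest mean for each gene. All 8 were measured, each by 1 such probe set, out of 18772 genes on the array.

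The arrays came from 15 male mice of a backcross in which hybrids of Mus spretus and FVB were crossed to FVB. Every mouse received the mutagen DMBA at 8 weeks and then the tumour promoter TPA 2 times per week, so the skin is that of treated mice and no untreated skin is part of the comparisons. Of the mice, 9 were wild type and 6 carried the allele labelled HrasKO. Primary tumours were resected once they had grown large, and the mice carried metastatic disease when they were killed. Skin was measured in 15 mice (9 wild type, 6 HrasKO) and papilloma in 13 mice (27 arrays; 9 wild type, 4 HrasKO). Carcinomas labelled squamous (SCC) came from 8 mice, all wild type, with 10 arrays, and those labelled spindle from 10 mice (12 arrays; 6 wild type, 4 HrasKO). Metastases labelled SCC came from 11 mice (24 arrays; 8 wild type, 3 HrasKO) and spindle metastases from 7 mice (20 arrays; 3 wild type, 4 HrasKO). Another 3 carcinomas and 1 metastasis were labelled mixed.

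Beta-defensins are cationic peptides that keratinocytes secrete into the outer epidermis, where they disrupt microbial membranes and also act on receptors of immune and epithelial cells. Some, such as Defb1, are made constitutively, while Defb3, Defb4 and Defb14 are known as genes that inflammation and cytokines such as interleukin-1, interleukin-17 and interleukin-22 induce. Camp is stored in neutrophil granules and can also be made by keratinocytes; Lcn2 is released by neutrophils and by stressed epithelia and withholds iron from bacteria; Slpi inhibits neutrophil elastase and related proteases.

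The values are normalized log2 intensities, so a difference of 1 is a doubling. They carry no detection calls, and a value near the bottom of the scale is not shown to be an absent transcript. A level is given as the lowest, median and highest mouse of a group, and a mouse with several tumours of one kind counts once, as their mean. Levels are not compared between genes. Array medians lay between 5.89 and 6.36, and any 2 arrays correlated between 0.80 and 0.99 across genes. Over all genes, 16 arrays resembled another class of tissue more than their own: 3 papillomas were nearest to skin, 4 papillomas and 8 SCC metastases to spindle tumours, and 1 spindle carcinoma to squamous tumours. The mean of 12 keratinocyte markers had a median of 11.35 in skin, 11.98 in papilloma, 11.46 in SCC carcinoma, 9.95 in SCC metastasis, 7.83 in spindle carcinoma and 5.75 in spindle metastasis. The spindle carcinoma of mouse 1949, at 10.96, lay far above the median of its group for these markers. These are bulk samples, in which fewer cells of a type and less RNA per cell cannot be told apart.

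Promoter sequence was at hand for 5 of the 8 genes, namely Defb3, Defb6, Camp, Slpi and Lcn2 (RefSeq, GRCm38.p6, 250 bases before the start of the gene). Those of Defb3 and Defb6 are shown because the genes share most of this sequence and moved in opposite directions from skin to papilloma. Each is written 5′ to 3′ on the plus strand, and capitals mark an octamer, ATTTGCAT, and a TATA-like stretch, TATATAA.
Defb3, chr8:19293111-19293360: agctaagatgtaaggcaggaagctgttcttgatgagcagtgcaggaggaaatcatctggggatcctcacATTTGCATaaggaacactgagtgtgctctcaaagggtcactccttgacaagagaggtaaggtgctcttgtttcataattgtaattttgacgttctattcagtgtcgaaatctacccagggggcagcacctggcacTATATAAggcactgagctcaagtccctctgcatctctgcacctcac
Defb6, chr8:19225228-19225477: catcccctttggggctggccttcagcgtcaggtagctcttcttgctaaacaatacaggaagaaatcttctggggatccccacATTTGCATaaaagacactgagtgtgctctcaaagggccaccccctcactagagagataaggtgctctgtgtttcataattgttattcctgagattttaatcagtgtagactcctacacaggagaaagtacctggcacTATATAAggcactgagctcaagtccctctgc
The pair was identical at 192 of 235 aligned bases (81.7%), against 56.2% to 68.4% for the other 9 pairs among these 5 promoters. The octamer, known as a binding motif of POU-domain factors, starts 181 bases before the start of Defb3 and 168 bases before that of Defb6. Searched on both strands, it lies in 1.6% of 32851 promoter windows. TATATAA starts 46 bases upstream in Defb3 and 31 in Defb6, and lies in 998 windows (3.04%). Neither motif is in the windows of Camp, Slpi or Lcn2. TGANTCA, the AP-1 consensus, is in none of the 5 windows and in 6.75% of all. The motifs were chosen after the sequences were seen, and a match describes letters only. Because beta-defensin genes resemble each other, a probe set could also take up transcripts of a related gene, and this was not tested.

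The first comparison asked how the genes differ between skin and the benign papillomas of the same 13 mice. Defb3, Defb4, Defb14 and Slpi were higher in papilloma, by 5.97-fold to 10.97-fold, while Defb6 was lower by 4.31-fold and Defb1, Camp and Lcn2 showed no difference past the test. So 4 of the 8 genes rose, where 24.5% of all genes did, and 1 fell, where 18.1% did. The median difference of the 8 was 1.30 on the log2 scale, against 0.05 over all genes.

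Defb3 had a lowest, median and highest level of 4.50, 6.20 and 9.65 in skin and 4.93, 10.62 and 11.64 in papilloma. It was higher in the papilloma of 12 of 13 mice, and the groups overlapped through the papillomas of mouse 1815 and the highest skins. The log2 difference was 3.27 ± 0.59 (SE, limma adjusted p = 0.000541), or 9.63-fold. Defb14, the mouse counterpart of human beta-defensin 3, lay at 5.41, 6.84 and 7.46 in skin and at 4.08, 10.37 and 11.05 in papilloma. All but 1 mouse had more in papilloma than in skin, and the difference was 2.98 ± 0.50 (SE, limma adjusted p = 0.000277).

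Defb4, the counterpart of human beta-defensin 2, was the most variable of the 8 in skin, with a lowest, median and highest level of 3.54, 6.94 and 10.09. Cut at the widest gap between neighbouring values, a cut set by the values themselves, 7 mice lay at or below 4.95 and 8 at or above 6.94. The next mouse above 6.94 lay at 8.67, so the division is not sharp. Of the 7 mice below the gap, 6 had papillomas, whose means per mouse lay between 8.45 and 11.58. Single papillomas of these mice were lower, at 4.97 in mouse 1407, 7.03 in mouse 1508 and 7.52 in mouse 1949. Papillomas as a whole ran from 3.51 through a median of 10.96 to 12.27. The difference was 3.46 ± 0.94 (SE, limma adjusted p = 0.00842), a 10.97-fold rise that 11 of 13 mice showed.

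Defb6 lay at 10.55, 11.96 and 12.40 in skin and went the other way. In papilloma it lay at 4.32, 10.14 and 11.61, lower than the skin of the same animal in all 13 mice, although the groups overlapped. The difference was -2.11 ± 0.54 (SE, limma adjusted p = 0.00599). Defb1, the constitutive member, lay at 7.64, 9.73 and 10.29 in skin and 3.77, 9.97 and 10.25 in papilloma. Its difference of -0.31 ± 0.53 did not pass the test (limma adjusted p = 0.667), with 7 mice higher and 6 lower.

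Slpi was the member with the least spread among papillomas, apart from Camp. Its skins lay at 7.72, 9.01 and 10.84 and its papillomas at 10.74, 11.96 and 12.58, so the groups met only at their edges. The difference was 2.58 ± 0.29 (SE, limma adjusted p = 1.07e-05), and 12 of 13 mice had more in papilloma. Lcn2 lay at 8.12, 10.11 and 11.86 in skin and 8.43, 10.01 and 11.71 in papilloma, a difference of -0.08 (limma adjusted p = 0.849). Camp lay between 3.62 and 4.29 in skin and between 3.86 and 4.26 in papilloma as mouse means, with a difference of 0.02 (limma adjusted p = 0.883).

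**Figure D1:**
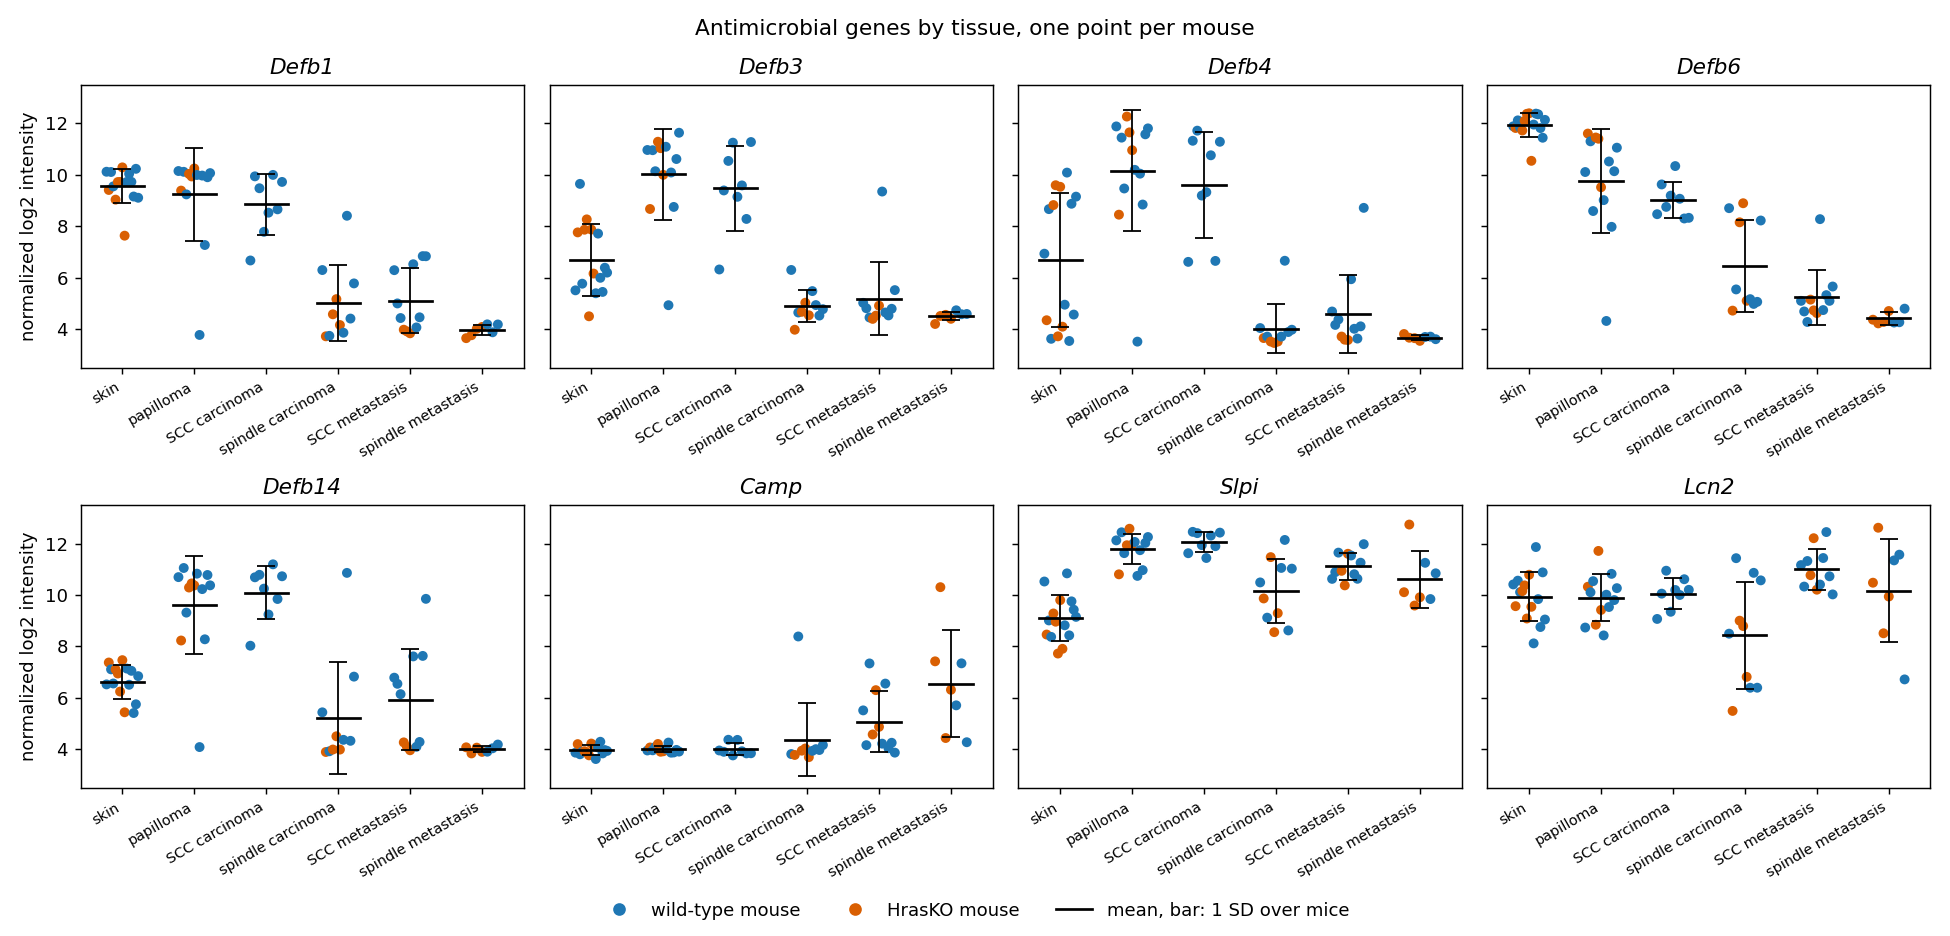
Normalized log2 intensity of the 8 genes (vertical axis) in 6 tissue groups (horizontal axis), with 1 point per mouse, blue for wild type and orange for HrasKO; the line is the mean and the bar 1 SD over mice. Defb3, Defb4 and Defb14 are highest in papilloma and SCC carcinoma, Defb6 is highest in skin, and all 5 defensins are low in spindle metastases, between 3.54 and 4.80.

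Several papillomas of a mouse could differ widely. Among the 11 mice with at least 2 papilloma arrays, the range of Defb4 within a mouse had a median of 1.12 and reached 7.71. Mouse 1984 held that extreme, with papillomas from 3.93 to 11.63 for Defb4, from 4.79 to 11.49 for Defb3 and from 3.84 to 10.53 for Defb14. In mouse 1815 both papillomas were low, at 3.33 and 3.70 for Defb4 and at 4.91 and 4.95 for Defb3. Those of mouse 1815, and 1 array each of mice 1984 and 1508, were the 4 papilloma arrays nearest to spindle tumours over all genes. Without the 7 papilloma arrays that stand apart, 12 mice remained and Defb4 lay at 11.63 ± 0.56, Defb3 at 10.98 ± 0.47 and Defb14 at 10.61 ± 0.21 (SD, n = 12). The differences from skin were then 5.21 for Defb4, 4.31 for Defb3, 3.96 for Defb14, 3.08 for Slpi and -1.43 for Defb6, all still past the test. Defb1 turned from -0.31 to 0.46 without those arrays, short of the test in both cases.

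The same question for carcinomas labelled SCC, in 8 mice with both tissues, again called 5 of the 8 genes. Defb3, Defb4, Defb14 and Slpi were higher in SCC carcinoma than in skin and Defb6 was lower, by 7.65-fold. The 4 of 8 that rose compare with 15.6% of all genes, and the 1 that fell with 15% of all genes. Both comparisons use skin of the same mice, so they are not independent.

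Defb14 lay at 8.02, 10.47 and 11.19 in SCC carcinoma, above every skin. Its difference was 3.55 ± 0.41 (SE, limma adjusted p = 0.000381), higher in 8 of 8 mice. Slpi, at 11.44, 12.12 and 12.45, also lay above every skin, with a difference of 2.88 ± 0.27 (SE, limma adjusted p = 0.00016). Defb6 lay at 8.31, 8.91 and 10.34, below every skin, with a difference of -2.93 ± 0.18 (SE, limma adjusted p = 2.49e-05).

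Defb3 in SCC carcinoma ran from 6.32 through 9.49 to 11.28 and Defb4 from 6.62 through 10.05 to 11.72. Each was higher than skin in 7 of 8 mice and overlapped it. The differences were 3.18 ± 0.67 for Defb3 (SE, limma adjusted p = 0.00682) and 3.32 ± 0.81 for Defb4 (SE, limma adjusted p = 0.013). Defb1, at 6.67, 9.07 and 10, differed from skin by -0.87 (limma adjusted p = 0.172). Lcn2, at 9.07, 10.12 and 10.94, differed by 0.34 and Camp, at 3.76, 3.91 and 4.37, by 0.09, neither past the test.

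Papilloma and SCC carcinoma of the same 8 mice were then set against each other. Of the 8 genes, 0 were called by limma and 0 had an unadjusted p under 0.05, where 0.202% of all genes were called. Defb3 differed by -1.06 (limma adjusted p = 0.621), Defb6 by -0.83 (limma adjusted p = 0.596), and Defb14 by -0.10. A difference that misses the test does not show that the tissues are alike.

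**Figure D2:**
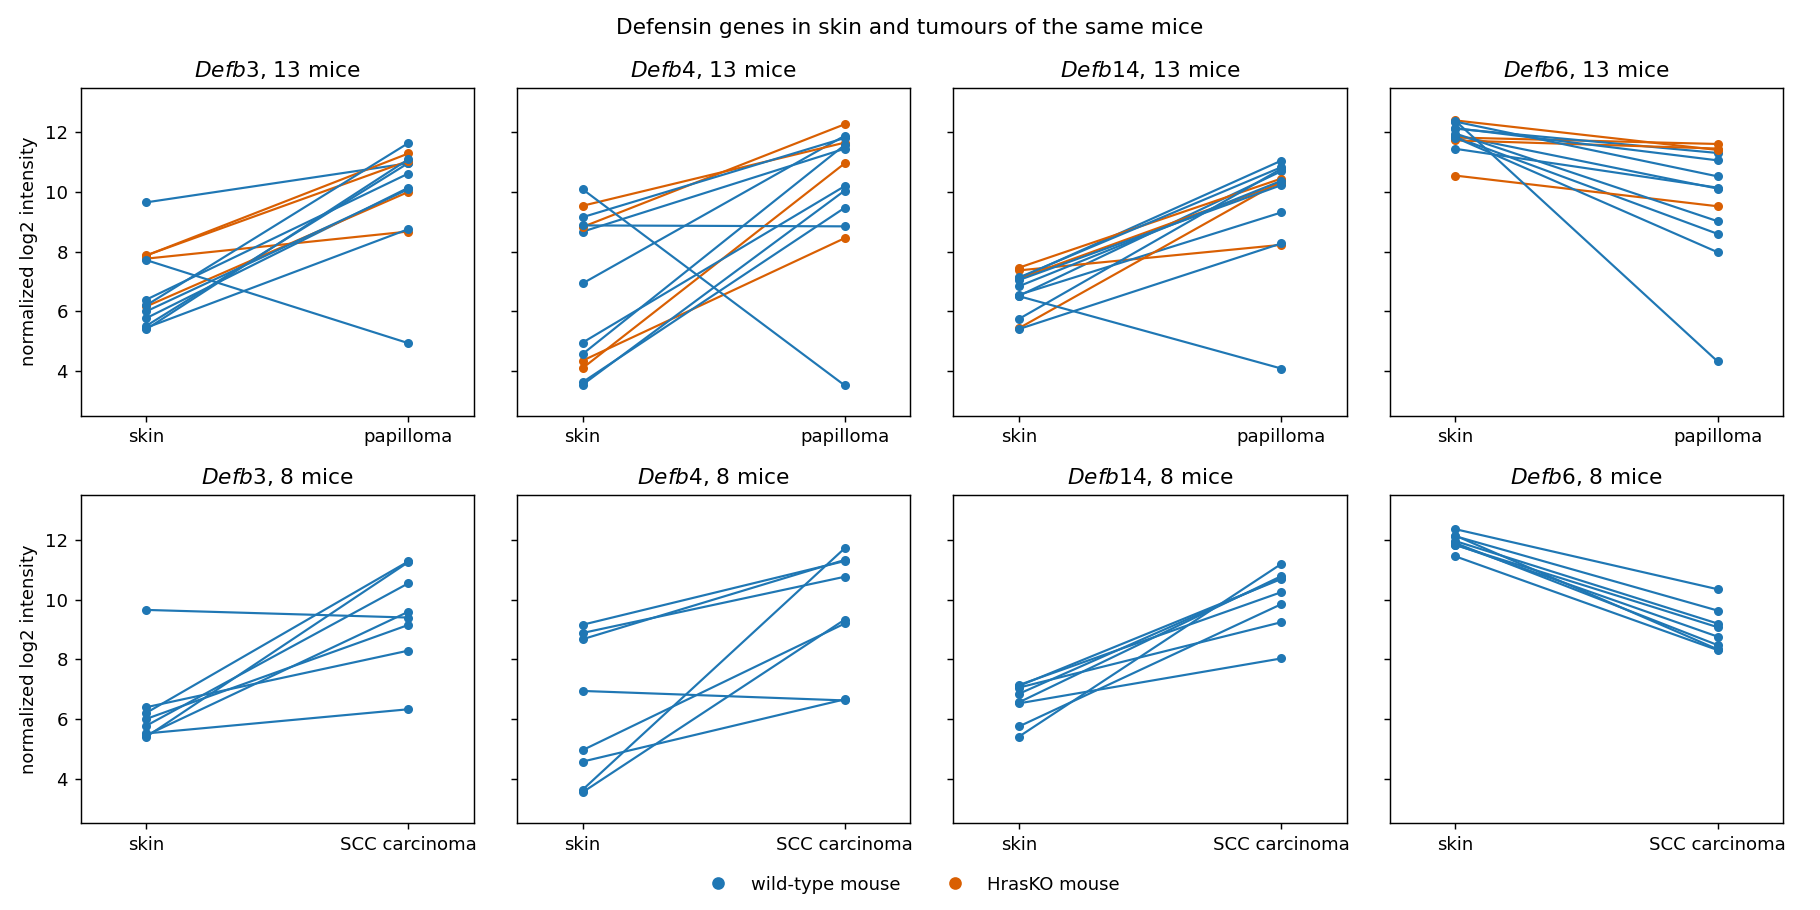
Normalized log2 intensity (vertical axis) of Defb3, Defb4, Defb14 and Defb6 in skin and in papilloma (upper row, 13 mice) or SCC carcinoma (lower row, 8 mice); each line joins the tissues of 1 mouse, blue for wild type and orange for HrasKO. Most lines of the first 3 genes go up and every line of Defb6 goes down; mouse 1815 falls to 3.51 for Defb4 in papilloma.

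Other genes of cutaneous defence were counted in lists. These lists do not hold the 8 genes, and they were drawn up with earlier results known. Of 21 further antimicrobial genes measured, 9 rose and 1 fell in papilloma, where 24.5% of all genes rose and 18.1% fell. They included Ltf, which encodes lactoferrin (3.02), the whey-acidic-protein genes Wfdc2 (2.95) and Wfdc12 (2.64), and S100a8, a calprotectin subunit (2.89). Ltf is also one of the neutrophil markers counted below, so the lists overlap. Of 23 genes for cytokines and receptors that act on defensins, 8 rose and 2 fell, with the cytokine Il1b at 3.06, the growth factor Hbegf at 2.57 and the receptor Il1r1 at -0.90. Of 16 transcription factors 3 rose and 3 fell, among them the epithelial factor Elf3 (2.41), Junb (0.61), Cebpd (-1.49) and Vdr, the vitamin D receptor (-0.75). Of 14 receptor and processing genes 1 rose, the protease Tmprss11d (4.83), and 2 fell. The counts of the last pair of lists are near or below the shares over all genes.

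In SCC carcinoma, 7 of the 21 antimicrobial genes rose and 1 fell relative to skin, and 8 of the 23 cytokine and receptor genes rose and 1 fell, where 15.6% of all genes rose and 15% fell. Il1b differed by 4.19, Il1a by 1.59, Elf3 by 3.91 and Tmprss11d by 4.62, while the kallikrein Klk5, which cleaves the cathelicidin precursor, differed by -2.51. Of the 35 other beta-defensin genes on the array, 5 rose in papilloma and 3 in SCC carcinoma, both a smaller share than the 24.5% and 15.6% over all genes. Defb8 differed by 2.14 and 2.26, and the next of these genes that are named here, Defb7, by 0.34 and 0.38.

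Markers of other cells also differed between these tissues. In papilloma, 6 of 13 neutrophil markers rose and 1 fell, and in SCC carcinoma 8 rose and 0 fell (8 at an unadjusted p under 0.05 in limma). Over all genes, 24.5% rose and 18.1% fell in papilloma and 15.6% rose in SCC carcinoma. Their summed level, as a mean over the list, ran from 4.97 to 6.31 in skin, 5.82 to 7.78 in papilloma and 6.81 to 7.83 in SCC carcinoma. All 10 hair follicle genes fell in papilloma, with a median difference of -2.28. Of 12 keratinocyte markers, 1 rose in papilloma, the hyperproliferation keratin Krt16 (2.74), and 0 fell. In SCC carcinoma 5 of the 12 rose and 2 fell, Krt1 (-2.95) and Krt10 (-2.38), where 15.6% of all genes rose and 15% fell. The part of these cells in the differences of the 8 genes was not tested.

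The next comparisons set spindle carcinomas against papillomas, SCC carcinomas and skin. In spindle carcinomas, all 5 defensins were lower than in papillomas of the same 9 mice, by 10.5-fold to 51-fold on the array scale, and Slpi was lower as well. Many of the spindle values lie near the bottom of that scale, where folds may understate the change. So 6 of the 8 genes fell, where 11.2% of all genes did, with a median difference of -3.62 against 0.03 over all genes. Against wild-type SCC carcinomas the 5 defensins and Slpi were lower too, where 4.09% of all genes were. Both comparisons share spindle carcinomas. Lcn2 and Camp passed neither test.

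Defb4 lay at 3.46, 3.71 and 6.66 in spindle carcinoma, with mouse 1949 alone above 4.04. It differed from papilloma by -5.67 ± 0.85 (SE, limma adjusted p = 0.00662) and was lower in 8 of 9 mice. Defb3, at 3.98, 4.73 and 6.30, differed from papilloma by -4.74 ± 0.64 (SE, limma adjusted p = 0.00565). In wild-type mice, Defb3 differed from SCC carcinoma by -4.42 ± 0.67 (SE, limma adjusted p = 0.0151). These groups met at mouse 1383, whose spindle carcinoma was at 6.30 and whose SCC carcinoma was at 6.32.

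Defb14 ran from 3.89 through 4.34 to 10.86 in spindle carcinoma. The highest was again mouse 1949, whose spindle array was nearest to squamous tumours over all genes. It differed from papilloma by -3.86 ± 0.78 (SE, limma adjusted p = 0.011) and was lower in 7 of 9 mice.

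Defb1 lay at 3.72, 4.50 and 8.41 and Defb6 at 4.72, 5.36 and 8.90. Defb6 was split, with 4 of the 10 mice at 8.16 or above and the others at or below 5.55. The differences from papilloma were -3.86 ± 0.62 for Defb1 (SE, limma adjusted p = 0.00775) and -3.39 ± 0.75 for Defb6 (SE, limma adjusted p = 0.0141), each lower in 8 of 9 mice. Slpi, at 8.55, 10.18 and 12.14, differed from papilloma by -1.28 ± 0.38 (SE, limma adjusted p = 0.0382). That call was lost in 7 of the 9 fits that left out 1 mouse (1383, 1407, 1508, 1509, 1664, 1984 or 2022), with adjusted p up to 0.0878.

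Against SCC carcinoma, with 6 and 8 wild-type mice of which 5 had both, the differences were -5.34 for Defb4, -4.18 for Defb14, -3.47 for Defb1, -2.75 for Defb6 and -1.66 for Slpi. Their limma adjusted p ran from 0.0151 to 0.042. Leaving out mouse 1508 or 1984 ended all 6 calls with the differences still negative. Without either one Defb3 stood at -4.20 and -4.30. Over all genes, the fits that left out 1 mouse called from 1 to 3678, against 1419 with every mouse. Without mouse 1815 or 2022, 3 calls remained. The Slpi call was lost in 8 of the 9 fits that left out 1 mouse (all but 1949) and that of Defb14 in 5 (1383, 1508, 1815, 1984 or 2022). RegCA, a term in tumour titles that the labels do not explain, marked 7 of 12 spindle and 1 of 10 SCC carcinoma arrays over both genotypes. Leaving RegCA carcinomas out kept the spindle carcinomas of mice 1383 and 1815 alone, so that fit rests on very few mice. Defb3 (-3.69, limma adjusted p = 0.0799) and Defb6 (-1.96, limma adjusted p = 0.15) were then no longer called, while Lcn2 was (-2.54, limma adjusted p = 0.0246). With mouse as a fixed replicate block, which uses the 5 mice with both tumours, 0 of 8 were called, although Defb4 still differed by -4.56 and Defb3 by -3.74 (limma adjusted p = 0.468 for each). With RegCA carcinomas left out, the comparison with papilloma kept 5 mice and called 0 of the 8; Defb4 then differed by -5.82 (limma adjusted p = 0.0828).

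Spindle carcinomas were also lower than skin of the same 10 mice, where 5 of 8 genes fell against 19.2% of all genes. Defb6 differed by -5.52 ± 0.55 (SE, limma adjusted p = 2.34e-05), or 45.98-fold, and Defb1 by -4.72 ± 0.41 (SE, limma adjusted p = 1.04e-05); for both, every skin of these mice lay above every spindle carcinoma. Defb3 differed by -1.97 ± 0.41, Defb4 by -2.98 ± 0.94 and Lcn2 by -1.85 ± 0.63 (SE, limma adjusted p = 0.00229, 0.0218 and 0.0313). The Defb4 call was lost without mouse 1537, 1664 or 1815 (adjusted p up to 0.0527), and the Lcn2 call without 1383, 1407, 1537, 1664, 1815 or 1984 (adjusted p up to 0.0723). Defb14 differed by -1.46 (limma adjusted p = 0.0913), and by -2.04 without mouse 1949 (limma adjusted p = 0.00291). Slpi differed by 0.78 (limma adjusted p = 0.151).

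Relative to papilloma, 7 of 21 other antimicrobial genes fell and 0 rose in spindle carcinoma (9 with an unadjusted p under 0.05 in limma), where 11.2% of all genes fell and 12.6% rose. They included Wfdc5 (-4.20), the peptidoglycan recognition genes Pglyrp3 (-3.29) and Pglyrp4 (-2.88), and S100a7a (-3.03). Of the cytokine and receptor genes 10 of 23 fell and 1 rose, with the interleukin-22 receptor chain Il22ra1 at -3.45, Il1a at -2.51 and the interleukin-17 receptor Il17re at -1.88. Of 14 receptor and processing genes 5 fell and 1 rose, with Klk5 at -3.51, Klk7 at -3.72 and their inhibitor Spink5 at -4.08. Ehf, an epithelial transcription factor, differed by -3.90. All 12 keratinocyte markers fell, with a median difference of -3.31, while 6 of 10 macrophage and 5 of 12 fibroblast or mesenchymal markers rose. Of the 13 neutrophil markers 0 were called in limma and 1 had an unadjusted p under 0.05. The part of keratinocyte content in the differences of the defensins was not tested.

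**Figure D3:**
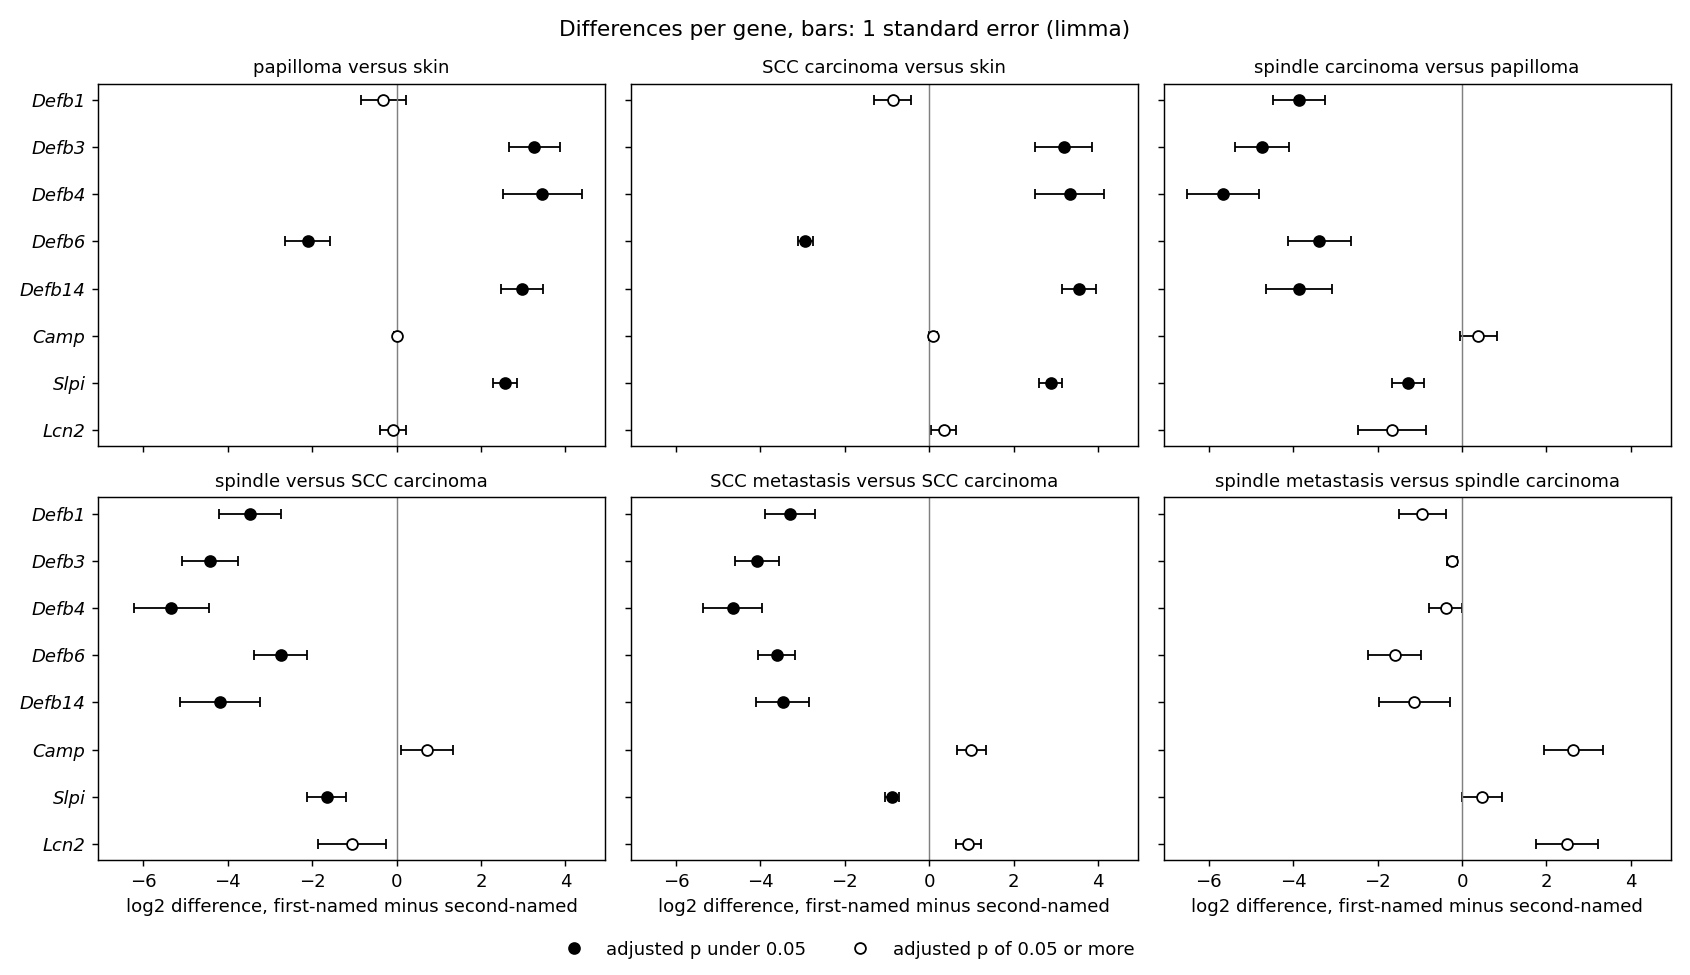
Log2 difference (horizontal axis, first-named tissue minus second-named) of the 8 genes (vertical axis) in 6 comparisons, with bars of 1 SE from limma; filled points have an adjusted p under 0.05. Defb6 lies left of 0 and Defb3, Defb4 and Defb14 right of 0 against skin in the first pair of panels; in spindle carcinoma and in SCC metastasis all 5 defensins lie between -2.75 and -5.67.

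Metastases were compared with the primary tumours of the same histology and mouse. In 8 mice with both, SCC metastases had less of all 5 defensins and of Slpi than SCC carcinomas. Each of these 6 genes was lower in 8 of 8 mice, and 6 of 8 genes fell where 2.74% of all genes did. The median difference was -3.39, against 0.01 over all genes.

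Levels of SCC metastases are those of all 11 mice, 3 of them HrasKO, and differences those of the 8 wild-type mice with both tumours. Defb4 lay at 3.58, 4.11 and 8.72 in SCC metastasis and differed by -4.66 ± 0.71 (SE, limma adjusted p = 0.0116). Defb3, at 4.40, 4.79 and 9.35, differed by -4.09 ± 0.53 (SE, limma adjusted p = 0.00793). Defb6, at 4.28, 5.10 and 8.28, differed by -3.62 ± 0.44 (SE, limma adjusted p = 0.00699), a 12.3-fold fall. Its highest metastasis, at 8.28, lay just below its lowest carcinoma, at 8.31.

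Defb14 kept the widest range, at 3.96, 6.14 and 9.85, and differed by -3.48 ± 0.63 (SE, limma adjusted p = 0.0194). Defb1, at 3.84, 4.46 and 6.84, differed by -3.29 ± 0.60 (SE, limma adjusted p = 0.0194). In the 8 matched mice, the metastases ran from 4.09 to 9.85 for Defb14 and from 4.07 to 6.84 for Defb1. Slpi, at 10.37, 10.94 and 11.98, differed by less, -0.89 ± 0.16 (SE, limma adjusted p = 0.0201). Without mouse 1456 the calls of Defb1, Defb14 and Slpi were lost (adjusted p of 0.062, 0.0635 and 0.0575), and without mouse 1508 that of Defb14 (0.0516).

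Not every SCC metastasis was low. Mouse 1717 kept 9.35 for Defb3, 8.28 for Defb6 and 7.61 for Defb14, and mouse 2104 kept 8.72 for Defb4 and 9.85 for Defb14. The metastasis labelled dorsal is 1 of the 2 arrays behind these means of mouse 2104, and held 8.54 for Defb4 and 9.92 for Defb14. With lymph node metastases alone (6 mice), or without the arrays that stand apart (6 mice), Defb6 was the 1 gene still called. The other differences kept their sign, with Defb3 at -3.60 and -3.67 and Defb4 at -4.07 in both.

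Markers of immune cells and of keratinocytes differed too. Of 8 lymphocyte markers 3 rose in SCC metastasis and of 10 macrophage markers 3 rose, where 1.81% of all genes did, while 3 of 12 keratinocyte markers fell, namely Krt1 (-4.36), Krt10 (-3.89) and Krt16 (-3.35). The keratinocyte list had a median difference of -1.13, and the lymphocyte list one of 1.55. Of 21 other antimicrobial genes 4 fell and 0 rose (11 with an unadjusted p under 0.05 in limma), with Wfdc5 at -4.04, Pglyrp3 at -2.44, S100a7a at -2.24 and S100a9 at -1.04. Il1b differed by -1.81, Klk7 by -3.62 and Spink5 by -3.13. Of 11 lung epithelium markers 0 were called in limma and 7 had an unadjusted p under 0.05. How much of the lower defensin signal goes with host tissue or with immune cells was not tested.

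Spindle metastases and spindle carcinomas of 7 mice gave 0 called genes of 8, and 0% of all genes were called; limma gave 3 of the 8 an unadjusted p under 0.05. These were Camp (2.64 ± 0.70, SE, adjusted p = 0.3), Lcn2 (2.49 ± 0.74, adjusted p = 0.314) and Defb6 (-1.60, adjusted p = 0.348). Camp was higher in the metastases of 7 of 7 mice, and Lcn2 in 6. For Camp, the carcinomas of these mice reached 4.03 and the metastases started at 4.27. Mouse 1508, whose spindle carcinoma mean was 8.38, had no spindle metastasis and was not among the 7. With lymph node metastases alone the differences were 1.09 for Camp, 1.01 for Lcn2 and -1.16 for Defb6 (limma adjusted p = 0.61, 0.73 and 0.61). The defensins of spindle metastases had little spread: Defb4 lay at 3.54, 3.67 and 3.81, Defb3 at 4.20, 4.56 and 4.73, Defb14 at 3.84, 4.03 and 4.18, Defb1 at 3.65, 4.01 and 4.19 and Defb6 at 4.22, 4.28 and 4.80.

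Spindle and SCC metastases (7 and 11 mice) gave 0 called genes of 8 in limma and 0 with an unadjusted p under 0.05, where 0.0693% of all genes were called. Defb14 differed by -1.28 (limma adjusted p = 0.301) and Camp by 1.15 (limma adjusted p = 0.411). Among lymph node metastases alone Defb14 differed by -2.31 (limma adjusted p = 0.0249), and over individual arrays with mouse as a random block by -1.53 (limma adjusted p = 0.0219).

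Camp, with little spread in skin, papilloma and SCC carcinoma, varied among metastases. It lay at 3.87, 4.57 and 7.34 in SCC metastases and at 4.27, 6.31 and 10.30 in spindle metastases, against 3.69, 3.95 and 8.38 in spindle carcinomas, where every mouse but 1508 lay at or below 4.16. In SCC metastases it was higher than in the carcinoma of the same mouse in 8 of 8, by 1.00 ± 0.34, short of the test (limma adjusted p = 0.121). The 3 mice with the highest SCC metastases, 1508, 1949 and 1664, were measured there by arrays nearest to spindle tumours. Without the arrays that stand apart the highest mouse was at 5.47 and the difference was 0.47 (limma adjusted p = 0.239). By site, the 3 spleen arrays of spindle metastases held 8.47 to 10.16, the 2 lung arrays 4.90 and 10.30, and the 2 liver arrays 6.25 and 9.31. The thymus array held 7.34, the kidney array 4.59 and the lymph node arrays 3.97 to 6.40 as mouse means.

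Lcn2 lay at 10.02, 10.77 and 12.45 in SCC metastases and 6.71, 10.48 and 12.61 in spindle metastases, with the 3 spleen arrays at up to 12.41. In spindle carcinomas it was spread from 5.49 through 8.64 to 11.43. Its difference between SCC metastasis and carcinoma was 0.93 ± 0.30 (SE, limma adjusted p = 0.102), higher in 7 of 8 mice, but 0.17 with lymph node metastases alone (limma adjusted p = 0.859). Slpi in spindle metastases lay at 9.59, 10.11 and 12.74, a range that overlapped that of spindle carcinomas.

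Neutrophil markers are given beside Camp and Lcn2. The mean of the 13 markers ran from 7.10 to 9.46 in SCC metastases and from 5.74 to 10.99 in spindle metastases, against 5.42 to 9.19 in spindle carcinomas. In spindle metastases 0 of the 13 were called in limma and 8 had an unadjusted p under 0.05, with the granule genes Ngp at 3.66, Ctsg at 2.81, Elane at 2.80 and Prtn3 at 2.41. In SCC metastases 2 of 13 rose, Ngp (1.84) and the collagenase Mmp8 (0.78), where 1.81% of all genes rose. There 9 of the 13 had an unadjusted p under 0.05 in limma, and the median difference over the list was 0.78. Of the other markers, the receptors Csf3r (-0.47) and Cxcr2 (-0.29) had negative differences, neither past the test. The calprotectin subunits are not among the 13 markers. They also had negative differences, S100a8 of -0.90 (limma adjusted p = 0.0683) and S100a9 of -1.04 (limma adjusted p = 0.0436). Over the 18 mouse means of metastases, Camp and this marker mean had a Pearson correlation of 0.90 and Lcn2 and the marker mean one of 0.72; the values come from the same arrays, so this is a description. The part of neutrophils, or of their precursors, in the levels of Camp and Lcn2 was not tested at any site.

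**Figure D4:**
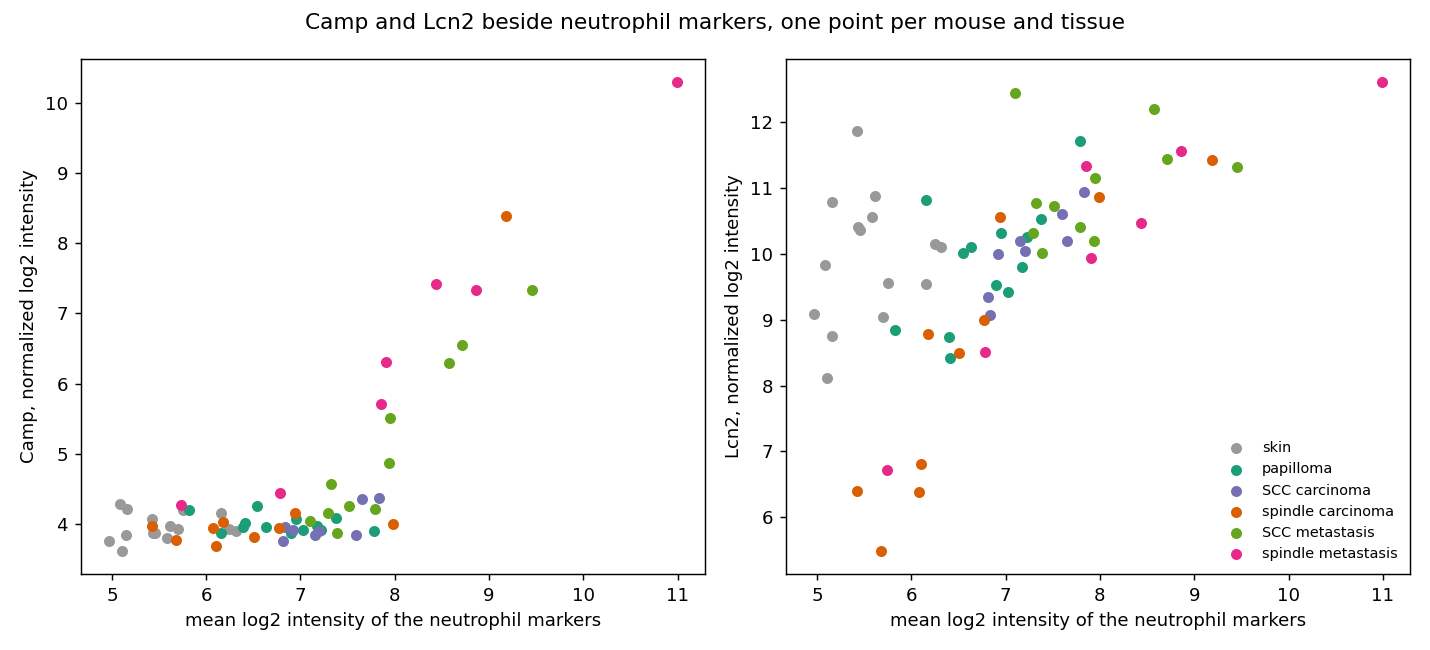
Normalized log2 intensity of Camp (left) and Lcn2 (right) on the vertical axis against the mean log2 intensity of 13 neutrophil markers on the horizontal axis, with 1 point per mouse and tissue, coloured by tissue. High Camp values lie to the right, among metastases (up to 10.30) and in the spindle carcinoma of mouse 1508 (8.38). The mouse means of skin, papilloma and SCC carcinoma stay at or below 4.37.

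Lung and lymph node metastases of 8 mice gave 0 called genes of 8, and 0% of all genes were called, with limma giving 3 of the 8 an unadjusted p under 0.05. Lcn2 was higher in the lung metastases of 8 of 8 mice, by 2.5 (adjusted p = 0.793), Slpi in 7 of 8, by 1.08 (adjusted p = 0.678), and Defb4 differed by -0.36 (adjusted p = 0.733). The counts of mice use plain means, whereas the differences are adjusted for the share of spindle arrays. In mice 1664, 1949 and 1984 the lung metastasis was SCC and the lymph node metastases were spindle. Site and histology changed together in these mice. All 11 lung epithelium markers had an unadjusted p under 0.05 and a median difference of 4.82. Both Slpi and Lcn2 can be made by airway cells, and the part of lung tissue in their levels was not tested.

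Genotype was compared in skin (6 HrasKO and 9 wild-type mice) and papilloma (4 and 9), and limma called 0 of the 8 genes in either, with 0 at an unadjusted p under 0.05. Of all genes, 0.00533% were called in skin and 0.00533% in papilloma. The widest gap was that of Defb6 in papilloma, at 9.52 to 11.61 in HrasKO and 4.32 to 11.31 in wild type, with a difference of 1.56 (limma adjusted p of about 1). The lowest wild-type mouse was 1815, and without the arrays that stand apart the difference was 0.88. In skin, Slpi differed by -0.71 (limma adjusted p = 0.561) and Defb1 by -0.49. The change from skin to papilloma differed between genotypes by 2.01 ± 1.11 for Defb6 (SE, limma adjusted p = 0.707), and by 1.27 without those arrays. In that comparison 0 of 8 genes were called, 0 had an unadjusted p under 0.05, and 0% of all genes were called. Genotype cannot be compared in SCC carcinoma, which held 0 HrasKO mice.

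The tumours labelled mixed differed among themselves. In mouse 1949 the mixed carcinoma held 10.01 for Defb3 and 10.91 for Defb6 but 5.78 for Defb4 and 6.52 for Defb14. That of mouse 1706 held 9.21 for Defb14 and 6.06 for Defb4, and that of mouse 1616 was low for all, at 4.31 for Defb3, 4.57 for Defb6, 3.74 for Defb4 and 3.97 for Defb14. The mixed lung metastasis of mouse 1508 held 10.40 for Camp and 12.18 for Lcn2.

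Among themselves, the genes fell into a few patterns over the 64 mouse means of the 6 groups, given here as a description because the points share mice and tissues. Defb3 and Defb4 had a Pearson correlation of 0.89, Defb4 and Defb14 0.86, and Defb3 and Defb14 0.85. Defb1 and Defb6 had one of 0.88, whereas Defb3 and Defb6, whose promoters are printed above, had 0.59. The mean of the keratinocyte markers correlated at 0.91 with Defb1, 0.83 with Defb14, 0.79 with Defb6, 0.75 with Defb4 and 0.73 with Defb3, but at 0.20 with Slpi and 0.10 with Lcn2, and at -0.60 with Camp.

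The 3 genes with the most similar pattern were taken for each, by the same correlation over 64 means. They were Kprp (0.97), Spink5 (0.97) and Tprg (0.97) for Defb1; Sprr4 (0.97), Sdr16c6 (0.96) and Lce6a (0.95) for Defb6; and Teddm3 (0.97), Klk11 (0.96) and Klk12 (0.96) for Defb14. For Defb3 they were Sprr2b (0.93), Degs2 (0.92) and Nkpd1 (0.90), and for Defb4 Gjb6 (0.93), Blmh (0.93) and Nkpd1 (0.92), so that Nkpd1 is shared by this pair. Sprr2b, Sprr4, Lce6a and Kprp encode proteins of the cornified envelope or the outer epidermis. Camp was most like the neutrophil granule genes Elane (0.96), Fcnb (0.94) and Prtn3 (0.94). The closest genes to Slpi were Sema4d (0.83), Stx11 (0.82) and Ier5 (0.82), and those to Lcn2 were Chil1 (0.70), Mmp8 (0.64) and Tmem38b (0.64), the weakest likeness of the 8.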

How the data were processed

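Gene expression in skin and tumours of 15 mice was measured with 112 Affymetrix arrays. The authors deposited log2 intensities for 28204 probe sets, made with robust multi-array averaging (RMA), per the submitters' processing notes. Neither its version nor any correction for batch is given in the sources used here. The values ran from 2.10 to 13.92. Of the probe sets, 21141 carried 1 gene symbol, 1881 several and 5182 none in the platform annotation; only the first kind was used. For the 1367 genes with several probe sets, the one with the highest mean was kept, which left 18772 genes. The number of arrays limits the precision.

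The replicate was the mouse, and arrays of 1 mouse and group were averaged on the log2 scale. Mouse numbers come from the labels, and groups from the same mice were paired because they share the animal. Comparisons were fitted over all genes with limma 3.58.1 in R 4.3.3 (lmFit, eBayes; two-sided), with mouse as a fixed block. For spindle against SCC tumours the mouse was a random block (duplicateCorrelation), for metastases with a genotype covariate. Lung and lymph node metastases carried the share of spindle arrays as a covariate, and genotypes a batch covariate. The labels give 2 batches, with 95 arrays (13 mice) in the first and 17 arrays (2 mice) in the other. P-values were adjusted over all genes (Benjamini-Hochberg) and called under 0.05. Fits were tested on simulated data. Mixed tumours entered no comparison.

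The genes and the lists around them were chosen with earlier results of these data known. The genes named beyond the 8 were the 3 whose means correlated most with each, and up to 4 members per list with the largest change among those that passed. The lists were antimicrobial, cytokine and receptor, transcription factor, receptor and processing, and other beta-defensin genes, and markers of keratinocytes, neutrophils, macrophages, fibroblasts or mesenchyme, lung epithelium, liver, lymphocytes and hair follicle. Of 5 liver markers 0 were called in either comparison of metastases with carcinomas (limma; 1 and 0 at an unadjusted p under 0.05 in SCC and spindle). Alternatives were the mean over probe sets, only genes that exceeded the median of all values in 8 or more arrays, trended and robust eBayes, repeated quantile normalization, batch 1 alone, individual arrays, no mouse term or a fixed mouse block, each mouse left out, arrays that stand apart left out, RegCA carcinomas left out and lymph node metastases alone. Promoters were aligned in pairs with scores of 2 for a match, -1 for a mismatch, -4 for opening and -0.5 for extending a gap.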

Additional observations from a re-analysis of the deposited data

Results flagged for a closer look

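Of 56 groups of 4 to 10 mice examined, 11 had a highest or lowest mouse far from the others by Dixon's criterion; chance flags about 1 in 20 groups. Wild-type papilloma held 5 of them, all the mean of both papillomas of mouse 1815. This mouse was lowest for Defb1 (3.77), Defb3 (4.93), Defb4 (3.51), Defb6 (4.32) and Defb14 (4.08), and its keratinocyte marker mean was the lowest of the papillomas, at 6.44.

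In spindle carcinoma, mouse 1949 was highest for Defb4 (6.66) and Defb14 (10.86), and its array was nearest to squamous tumours over all genes. Mouse 1508 was highest for Camp there (8.38), where the neutrophil marker mean reached 9.19. Among HrasKO mice, mouse 1706 was lowest for Defb6 in skin (10.55) and in papilloma (9.52), and mouse 1407 was lowest for Defb14 in papilloma (8.23).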

How the results depend on the processing

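The counts of called genes in papilloma and SCC carcinoma against skin stayed at 5 under every alternative run and with each mouse left out. In spindle carcinoma against skin (5 called), batch 1 alone gave 3, and leaving out single mice gave 3 to 6 (3 without mouse 1537, 1664 or 1815). In spindle carcinoma against papilloma (6 called), leaving out RegCA carcinomas gave 0, with 5 mice and 0 genes called in all; leaving out single mice gave 5 to 6. In spindle against SCC carcinoma (6 called), the fixed replicate block for mouse gave 0 with 5 mice, and leaving out single mice gave 0 to 6. In SCC metastasis against carcinoma (6 called), batch 1 alone gave 3, removal of the arrays that stand apart 1, lymph node metastases alone 1, and leaving out single mice 3 to 6. In spindle against SCC metastasis (0 called), individual arrays and lymph node metastases alone gave 1 each. Without the replicate block, that is with no mouse term, the number called was unchanged in the 8 comparisons between tissues that were refitted so. Over all genes the number called moved more: from 4470 to 2278 (batch 1) and 7912 (without the arrays apart) in spindle carcinoma against papilloma, from 1419 to 657 and 3679 in spindle against SCC carcinoma, from 854 to 202 and 78 in SCC metastasis against carcinoma (60 in lymph node alone, 2216 over individual arrays), from 38 to 0 and 424 in SCC carcinoma against papilloma, and from 13 to 0 and 1585 in spindle against SCC metastasis.

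For called genes, 256 of 287 values under alternatives and 268 of 311 with a mouse left out kept their sign and their side of the threshold; the others lost the call and 0 changed sign. The within-mouse correlation of the random block had no finite estimate, and no block was used, for spindle against SCC carcinoma without RegCA and spindle against SCC metastasis without the arrays that stand apart. The cause was not tested. Values near the bottom of the scale limit what a difference between low groups can show.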
